A study of Mus musculus with 6 samples.

Results

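*Aatk*, *Adam11*, *Dmpk* and *Limd2* are 4 genes of 54446 listed in the deposited tables. They were picked by name as genes on other chromosomes than *Fmo5* with a large and consistent change in *Fmo5*-/- liver. Their difference between genotypes is therefore what chose them, and it is described here without a test. Messenger RNA was sequenced from the livers of 6 male mice on a C57BL/6 background (C57BL/6J in the methods), 3 WT and 3 *Fmo5*-/-, with 1 library per mouse. *Fmo5* encodes a flavin-containing monooxygenase that is abundant in liver, and the knockout line carries the disruption in every tissue. The mice were 32 weeks old by the study's account, were fed a standard chow and received no treatment that the labels or methods name. Whole pieces of liver were extracted, so every cell type of the organ contributed RNA.

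Of the proteins that the 4 genes encode, AATK and DMPK are kinases, and ADAM11 and LIMD2 are not. AATK, also called LMTK1, is a membrane-anchored kinase first described in myeloid cells undergoing apoptosis and best known in neurons, where it acts with the CDK5 kinase and RAB11 in the transport of recycling endosomes. DMPK is a serine/threonine kinase related to the MRCK and ROCK kinases, and a repeat expansion in its gene causes myotonic dystrophy. ADAM11 belongs to the ADAM family of membrane proteins but lacks an active metalloprotease site and is known mainly from the nervous system. LIMD2 is a small protein made largely of a single LIM domain, and it can bind and activate integrin-linked kinase.

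Positions were taken from GENCODE release M21 on GRCm38, the build also called mm10. *Aatk* (ENSMUSG00000025375.15) occupies chr11:120007313-120047167 on the minus strand, with 7159 exonic bases in 15 blocks. *Adam11* (ENSMUSG00000020926.16) occupies chr11:102761439-102780262 on the plus strand, with 5669 exonic bases in 26 blocks. *Limd2* (ENSMUSG00000040699.13) occupies chr11:106156256-106160860 on the minus strand, with 3707 exonic bases in 6 blocks. *Dmpk* (ENSMUSG00000030409.15) occupies chr7:19083849-19093821 on the plus strand, with 4330 exonic bases in 15 blocks. The 3 genes on chromosome 11 are not close neighbours, because 3.38 Mb separate *Adam11* from *Limd2* and 13.8 Mb separate *Limd2* from *Aatk*. *Fmo5* itself lies on chromosome 3.

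The RefSeq promoter table for GRCm38.p6 held 3 of the 4 genes, and the 250 bases before each start are shown because these genes moved in opposite directions between the genotypes. *Adam11* had no entry. The stretches are chr11:120047153-120047402 on the minus strand for *Aatk*, chr7:19083608-19083857 on the plus strand for *Dmpk* and chr11:106160730-106160979 on the minus strand for *Limd2*. Capitals mark the only match, on either strand, to any motif searched.
Aatk: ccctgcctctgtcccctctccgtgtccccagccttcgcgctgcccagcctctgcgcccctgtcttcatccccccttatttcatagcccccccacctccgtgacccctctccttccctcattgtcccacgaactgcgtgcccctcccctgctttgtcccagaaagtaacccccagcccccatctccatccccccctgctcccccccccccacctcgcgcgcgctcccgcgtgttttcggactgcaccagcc
Dmpk: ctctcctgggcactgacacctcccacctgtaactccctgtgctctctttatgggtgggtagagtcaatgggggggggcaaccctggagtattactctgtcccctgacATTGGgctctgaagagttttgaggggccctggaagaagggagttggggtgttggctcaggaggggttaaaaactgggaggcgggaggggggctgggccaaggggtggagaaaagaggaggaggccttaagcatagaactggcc
Limd2: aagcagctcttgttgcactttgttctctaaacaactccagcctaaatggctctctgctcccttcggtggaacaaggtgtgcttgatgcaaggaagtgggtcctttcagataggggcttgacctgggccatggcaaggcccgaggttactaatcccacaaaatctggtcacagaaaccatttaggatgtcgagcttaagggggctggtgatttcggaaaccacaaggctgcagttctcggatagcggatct
The *Aatk* promoter was the richest of the 3 in G and C, at 67.6% with 14 CpG dinucleotides. The *Dmpk* promoter held 58.4% G and C with a single CpG, and the *Limd2* promoter 50.8% with 6. Across 32851 promoters of the same length the medians were 52.4% and 6. The motifs searched on both strands were CACGTG (in 6.02% of all promoters), GGGCGG (32.7%), CCAAT (33.8%), TATAAA (12.4%), TGACNNNGC (10.2%), GAANNTTC (6.69%) and DR1, a spaced direct repeat of the half-site AGGTCA (0.0335%). The capitals in *Dmpk* are the reverse complement of CCAAT, and a match describes letters only. The RefSeq start of *Limd2* lies 131 bases from the GENCODE start of the gene, against 15 bases for *Aatk* and 9 for *Dmpk*.

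Both kinase genes also hold microRNA genes in their introns. *Mir338* (chr11:120014765-120014862, minus strand) and *Mir3065* (chr11:120014767-120014853, plus strand) lie opposite each other within *Aatk*, and *Mir3100* (chr7:19086828-19086892, plus strand) lies within *Dmpk*. Their mature sequences from RefSeq are shown because the host genes moved, with the seed, bases 2 to 8, in capitals.
mmu-miR-338-3p: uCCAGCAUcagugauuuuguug
mmu-miR-338-5p: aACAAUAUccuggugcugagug
mmu-miR-3065-5p: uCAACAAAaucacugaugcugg
mmu-miR-3100-5p: uUGGGAACggggugucuuuggga
mmu-miR-3100-3p: cUGUGACAcacccgcucccag
No 2 of these share a seed. The libraries were made from mRNA and do not measure mature microRNAs. Reads on the intronic hairpins were few: *Mir338* and *Mir3065* had 0 counts in every library when both strands were counted together and 0 to 5 each when the strands were counted separately, and *Mir3100* had 4, 3 and 4 with both strands together in WT and 9, 12 and 9 in *Fmo5*-/- livers, a gene named after its values were seen.

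The libraries held 44886286 to 52338675 reads assigned to genes, 66.2 to 69.2% of the reads listed for each. Counts were scaled by the trimmed mean of M-values (TMM) and are given as normalized counts, the counts expected at the mean library size. *Fmo5* checked the labels: it had 39808, 37405 and 30240 normalized counts in WT and 1071, 1102 and 1194 in *Fmo5*-/- livers, a log2 fold change of -5.00 (SE 0.14). The edgeR quasi-likelihood test, with p-values adjusted by the Benjamini-Hochberg method, called 229 of 16734 tested genes (1.37%) at an adjusted p under 0.05, 113 higher (0.675%) and 116 lower (0.693%) in *Fmo5*-/-. Values of the 3 livers of each genotype did not overlap for 27.4% of tested genes, 13.9% higher and 13.5% lower. DESeq2 called 1395 of 15571 genes (8.96%), 739 higher (4.75%) and 656 lower (4.21%). All 4 genes were tested, and all 4 fell in both classes, as their choice on this contrast implies. Without *Fmo5*-/- replicate 1, edgeR called 31 genes in all, 1 of the 4 among them. The reads outside any annotated gene made up 6.86 to 7.02% in WT and 6.96 to 8.63% in *Fmo5*-/- libraries, and their part in the results was not tested.

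*Aatk*, the membrane-anchored kinase, was the only gene of the 4 with a lower level in *Fmo5*-/- liver. It had 1036, 1155 and 858 normalized counts in the WT livers and 515, 541 and 458 in the *Fmo5*-/- livers. Every knockout liver was below every WT liver, and the WT livers were the more spread. The means were 1016 ± 149.5 and 505 ± 42.0 (SD, n = 3 each), which is a log2 fold change of -1.01 (SE 0.12). WT livers thus held 2.01 times the *Aatk* RNA of knockout livers on average, and 1.59 times between the closest pair of livers. Because whole liver was sequenced, fewer cells that express a gene and less RNA per cell cannot be told apart. Among tested genes with a mean of at least 500 normalized counts that were lower in *Fmo5*-/- liver, *Aatk* ranked 27 by the size of its change.

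*Dmpk*, the kinase gene of myotonic dystrophy, was higher in *Fmo5*-/- liver. It had 1399, 1480 and 1260 normalized counts in WT and 2795, 2934 and 2209 in *Fmo5*-/- livers. The groups did not overlap, although 1 knockout liver lay well below the other two. The means were 1379 ± 111 and 2646 ± 385 (SD, n = 3 each), which is a log2 fold change of 0.94 (SE 0.12). The ratio of means was 1.92, and that of the closest pair of livers was 1.49. *Dmpk* ranked 61 among the higher genes with a mean of at least 500.

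*Adam11*, the ADAM family member without an active protease site, had the largest fold change of the 4 in the fit to all libraries. Without WT replicate 3 *Aatk* changed more, with a log2 fold change of -1.11 against 1.04 for *Adam11*. The same held without *Fmo5*-/- replicate 1, at -1.02 against 0.99. *Adam11* had 934, 880.4 and 823 normalized counts in WT and 2089, 1573 and 1928 in *Fmo5*-/- livers. The WT livers lay close together, and the lowest knockout liver was still 1.68 times the highest WT liver. The means were 879 ± 55.5 and 1863 ± 264 (SD, n = 3 each), which is a log2 fold change of 1.08 (SE 0.11) and a ratio of 2.12. Among the knockouts the lowest *Adam11* value was in replicate 2, whereas the lowest *Dmpk*, *Limd2* and *Aatk* values were all in replicate 3. *Adam11* ranked 37 among the higher genes with a mean of at least 500.

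*Limd2*, the LIM domain gene, had the smallest counts of the 3 higher genes. It had 679.9, 535 and 616 normalized counts in WT and 1158, 1107 and 1004 in *Fmo5*-/- livers. All knockout livers were above all WT livers, with a ratio of 1.48 between the closest pair. The means were 610.0 ± 72.9 and 1089.7 ± 78.2 (SD, n = 3 each), which is a log2 fold change of 0.84 (SE 0.11) and a ratio of 1.79. *Limd2* ranked 76 among the higher genes with a mean of at least 500.

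**Figure D1:**
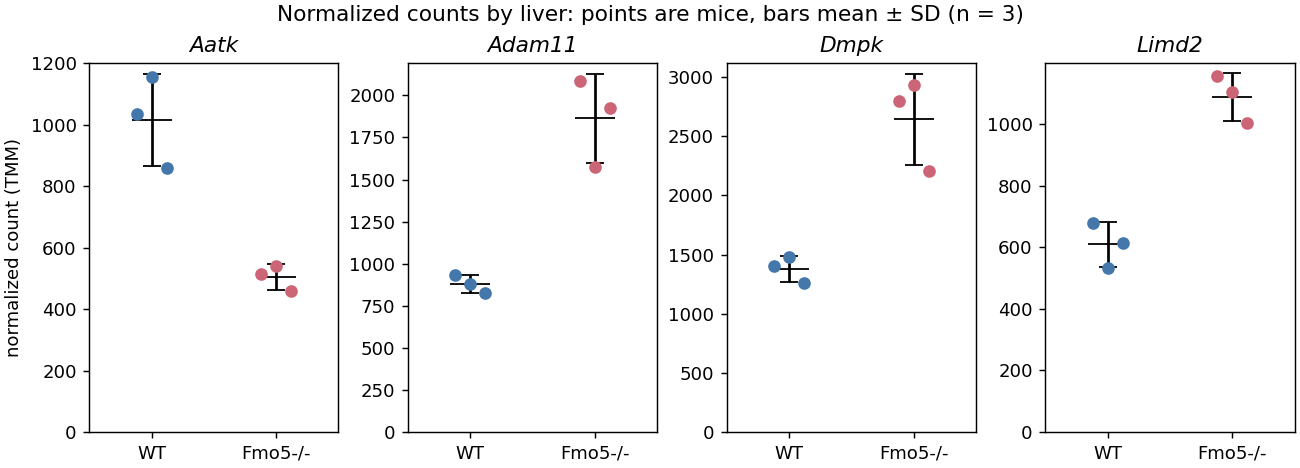
Normalized counts (vertical axis, from 0) of *Aatk*, *Adam11*, *Dmpk* and *Limd2* in each liver, by genotype (horizontal axis). Points are mice, and bars are the mean ± SD of 3 livers. The groups do not overlap in any panel, and the *Aatk* panel alone is lower in *Fmo5*-/- (means 1016 and 505).

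To set the genes beside each other, levels were expressed as CPM, a gene's share of the library's scaled counts, per kilobase of exon (CPM/kb). In WT liver *Dmpk* stood highest at 6.53 ± 0.53 CPM/kb (SD, n = 3). *Limd2* at 3.37 ± 0.40, *Adam11* at 3.18 ± 0.20 and *Aatk* at 2.91 ± 0.43 CPM/kb followed, and the livers of these 3 overlapped. In *Fmo5*-/- liver *Dmpk* again stood highest at 12.5 ± 1.82 CPM/kb. *Adam11* at 6.74 ± 0.95 and *Limd2* at 6.02 ± 0.43 CPM/kb overlapped below it, and *Aatk* at 1.44 ± 0.12 CPM/kb was below both in every liver. By mean level per length over the 6 libraries, *Dmpk* stood at percentile 80.4 of tested genes, *Adam11* at 68.8, *Limd2* at 67.7 and *Aatk* at 51.6. All 4 were well counted in every liver, with 467 reads or more, although *Aatk* and *Adam11* are best known from neurons and *Dmpk* from muscle.

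The fold changes moved little with the processing. Over 13 alternatives, which included DESeq2, other scalings, other filters, the counts of each strand alone and leaving out each library, the log2 fold change ranged from -1.11 to -0.91 for *Aatk* and from 0.99 to 1.19 for *Adam11*. It ranged from 0.86 to 1.05 for *Dmpk* and from 0.75 to 0.93 for *Limd2*.

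**Figure D2:**
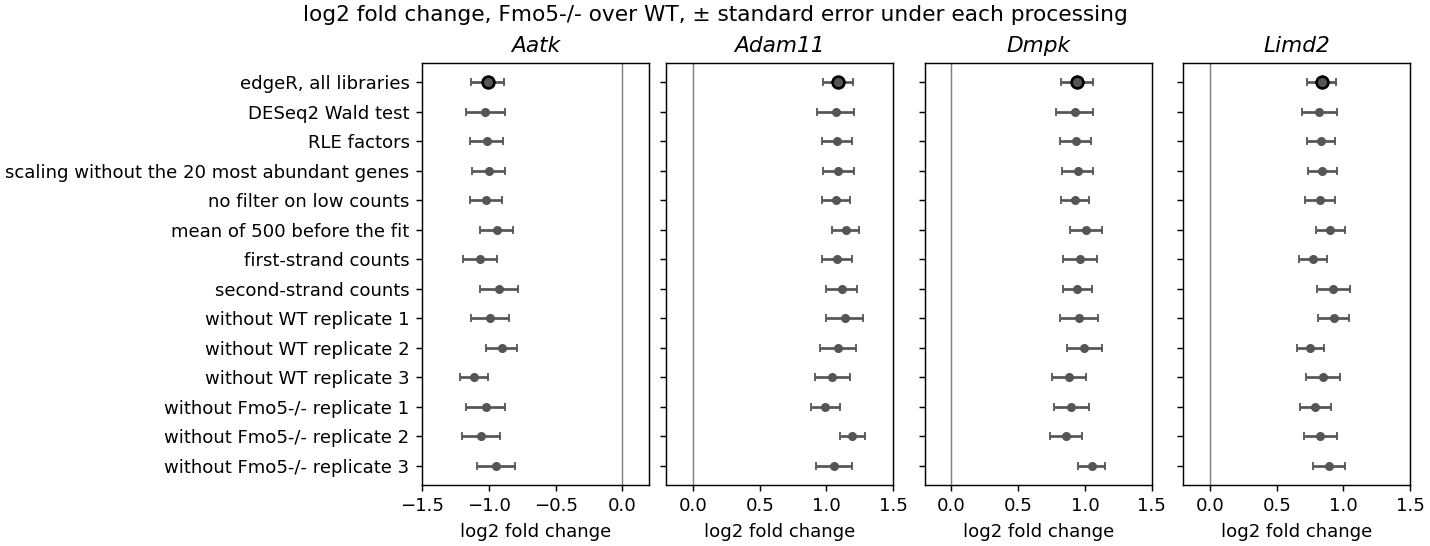
log2 fold change of *Fmo5*-/- over WT (horizontal axes) ± standard error for each gene under the edgeR fit to all libraries (large black point) and each alternative (grey points). Every point of *Aatk* is below 0, between -1.11 and -0.91, and every point of the other genes is above 0.

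Reads that could belong to more than 1 gene, 3.52 to 3.98% of those listed per library, were assigned to no gene. An overlap can thus take reads out of a count, so each gene was checked against the counts of the separate strands. The reads of each library fell almost evenly on the strands (49.9 to 50.1% on the first), so the libraries do not mark strand. The share on the first strand was 42.7 to 51.0% for *Aatk*, 46.4 to 49.9% for *Adam11*, 46.5 to 49.3% for *Dmpk* and 47.2 to 52.5% for *Limd2*. The exact 95% binomial interval held 50% in 5 of 6 libraries for *Aatk*, 3 for *Adam11*, 3 for *Dmpk* and 6 for *Limd2*. Counting the strands separately added 0 to 2 reads per library to any of the 4 genes. The only exonic overlap was with *Gm10840*, which shares 11 exonic bases, 0.297%, with *Limd2* and had 0 or 1 count per library. Reads from the 4 genes and from such partners cannot be told apart where they overlap.

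Relatives and partners of each gene were then examined in lists chosen for their known biology. Of 72 listed genes 65 were tested, and 2 (3.08%) were called by the edgeR quasi-likelihood test with Benjamini-Hochberg adjustment over all tested genes, against 1.37% of all genes. The median log2 fold change over all tested genes was 0.0058.

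Of the AATK list, the kinases *Lmtk2* and *Lmtk3* with CDK5, RAB11, the chloride cotransporters and phosphatase subunits, 11 of 13 genes were tested and none was called by the edgeR quasi-likelihood test. At an unadjusted p under 0.05 there was 1 gene of 11, against 21.8% of all tested genes, and DESeq2 called 1 of 11 lower, against 4.21%. The median log2 fold change of the list was -0.0080. The smallest adjusted p, 0.0931, was that of *Slc12a2*, the sodium, potassium and chloride cotransporter, with 479.6 ± 70.0 normalized counts in WT and 348 ± 21.6 in *Fmo5*-/- (SD, n = 3 each) and a log2 fold change of -0.46 (SE 0.13).

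Of the DMPK list, the MRCK, ROCK, NDR and LATS kinases with the MBNL and CELF splicing factors and known neighbours, all 21 genes were tested and *Mbnl2* alone was called by edgeR. At an unadjusted p under 0.05 there were 2 of 21, against 21.8% of all tested genes, and DESeq2 called *Mbnl2* alone of 20, lower, against 4.21%. *Mbnl2* encodes a muscleblind splicing factor, the class of protein that is sequestered by the repeat RNA of the myotonic dystrophy gene. It had 1862 ± 67.5 normalized counts in WT and 1388 ± 67.4 in *Fmo5*-/- liver (SD, n = 3 each), which is a log2 fold change of -0.42 (SE 0.076) with an adjusted p of 0.0430 by the edgeR quasi-likelihood test with Benjamini-Hochberg adjustment. The adjusted p passed 0.05 in only 1 of 6 fits that left out a library, that without *Fmo5*-/- replicate 3, and ranged from 0.0378 to 0.142 over the 6, with log2 fold changes of -0.45 to -0.38. It was 0.0601 with only genes of a mean of at least 500 in the fit and 0.0505 with second-strand counts. The list median was -0.017.

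Of the ADAM list, other ADAM family members with and without an active protease site, the LGI ligands, the inhibitor TIMP3 and the iRhom proteins, 14 of 18 genes were tested. The log2 fold change was positive for 10 and negative for 4, against 49.2% negative among all tested genes. *Rhbdf2*, which encodes the iRhom2 protein that carries ADAM17 to the cell surface, was the only gene called by edgeR. It had 553 ± 6.95 normalized counts in WT and 804 ± 70.8 in *Fmo5*-/- liver (SD, n = 3 each), which is a log2 fold change of 0.54 (SE 0.093) with an adjusted p of 0.0372 by the same edgeR test and adjustment. Leaving out a library kept its call in 1 of 6 fits, without *Fmo5*-/- replicate 3, with adjusted p from 0.0161 to 0.119. The list median was 0.22, 6 of 14 genes had an unadjusted p under 0.05 against 21.8% of all tested genes, and DESeq2 called 4 of 14 genes higher and 1 lower, against 4.75% and 4.21% of all genes.

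Of the LIMD2 list, the ILK, PINCH and parvin complex with other LIM domain proteins, 19 of 20 genes were tested and none was called by the edgeR quasi-likelihood test. At an unadjusted p under 0.05 there were 7 of 19, against 21.8% of all tested genes, and DESeq2 called 3 of 19 higher, against 4.75%. The median log2 fold change was 0.12. The smallest adjusted p, 0.0662, was that of *Parvg*, a parvin of blood cells, with 35.1 ± 2.37 normalized counts in WT and 102.8 ± 52.9 in *Fmo5*-/- liver (SD, n = 3 each) and a log2 fold change of 1.55. The kinase gene *Ilk* was not tested: it had only 4 to 10 counts per library when both strands were counted together, against 2681 to 2960 when the strands were counted separately.

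**Figure D3:**
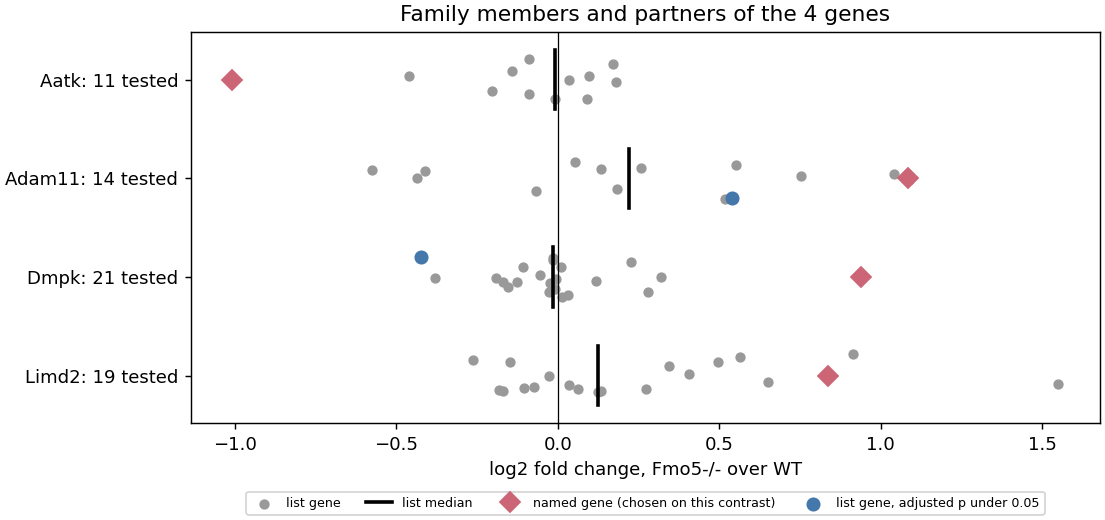
log2 fold change of *Fmo5*-/- over WT (horizontal axis) for the tested genes of the lists around *Aatk*, *Adam11*, *Dmpk* and *Limd2*. Grey points are genes, blue points genes with an adjusted p under 0.05, black bars list medians and red diamonds the gene itself; the medians are -0.0080, 0.22, -0.017 and 0.12.

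The surroundings of each gene were examined for other changes. Of 112 tested genes within 0.5 Mb of any of the 4, none was called by the edgeR quasi-likelihood test, 22 (19.6%) had an unadjusted p under 0.05 against 21.8% of all tested genes, and DESeq2 called 3 of 104 higher, against 4.75% of all genes (*Clasrp*, *Fmnl1* and *Vasp*, named after their values were seen). The median log2 fold change was 0.050 around *Aatk*, 0.067 around *Adam11*, 0.12 around *Dmpk* and 0.017 around *Limd2*.

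The nearest tested genes on the 2 sides were, for *Aatk*, *Baiap2* at 0.531 kb (log2 fold change 0.21, SE 0.24) and *Cep131* at 17.3 kb (0.29, SE 0.14). Around *Adam11* they were *Ccdc43* at 63.7 kb (-0.015, SE 0.087) and *Gjc1* at 19.3 kb (0.69, SE 0.52). Around *Dmpk*, *Dmwd* lay 1.07 kb away (0.32, SE 0.086) and *Six5* 0.773 kb away (0.28, SE 0.16). Around *Limd2*, *Map3k3* lay 0.81 kb away (0.25, SE 0.082) and *Strada* 2.47 kb away (0.42, SE 0.15). The log2 fold change of 7 of these 8 genes was positive, beside 74 of the 112 tested genes within 0.5 Mb. Of all tested genes 49.2% had a negative one. The adjusted p of all 8 nearest genes was over 0.05. In *Dmwd*, the closest of the 8 to the threshold, the adjusted p was 0.0845 by the edgeR quasi-likelihood test with Benjamini-Hochberg adjustment. *Dmwd* had 1149.6 ± 85.7 normalized counts in WT and 1435 ± 80.2 in *Fmo5*-/- (SD, n = 3 each).

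**Figure D4:**
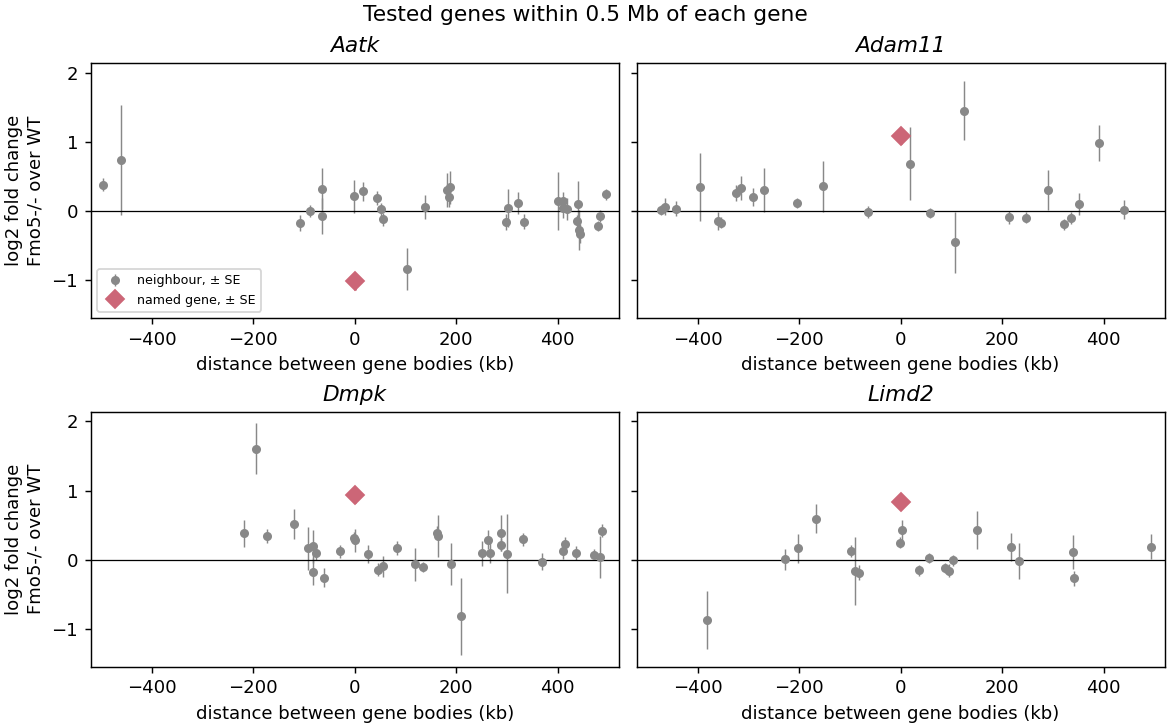
log2 fold change of *Fmo5*-/- over WT ± standard error (vertical axis) against the distance in kb from each gene (horizontal axis; negative values lie at lower coordinates). Grey points are tested neighbours and red diamonds the gene itself; no neighbour had an adjusted p under 0.05 by edgeR, and DESeq2 called 3 of 104.

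Cell types of the liver were followed through marker lists, because every cell type of the tissue piece enters a bulk library. All 6 Kupffer cell markers had a higher mean in *Fmo5*-/- liver, with a summed level of 151 to 179 CPM in WT and 239 to 443 CPM in *Fmo5*-/- livers. Of these 6 all had an unadjusted p under 0.05, against 21.8% of all tested genes, and DESeq2 called 5 higher, against 4.75% of all genes. By edgeR *Clec4f* alone was called (log2 fold change 0.70, adjusted p = 0.0275 by the edgeR quasi-likelihood test with Benjamini-Hochberg adjustment), and the call held in 2 of 6 fits that left out a library, those without WT replicate 3 and without *Fmo5*-/- replicate 3, with adjusted p from 0.00845 to 0.102 over the 6. All 10 T and NK cell markers also had a higher mean. Their summed level was 6.96 to 11.8 CPM in WT and 11.8 to 38.6 CPM in *Fmo5*-/- livers. None of these 10 was called by edgeR, 8 had an unadjusted p under 0.05 and DESeq2 called 5 higher, beside the same shares of 21.8% and 4.75%. All 3 tested neutrophil markers of 5 had a higher mean, with a median log2 fold change of 1.26. None of these 3 was called by edgeR, 2 had an unadjusted p under 0.05 and DESeq2 called 1 higher, beside 21.8% and 4.75% of all genes. Neutrophil markers summed to 0.94 to 2.6 CPM in WT and 2.6 to 5.7 CPM in *Fmo5*-/- livers, ranges that overlapped narrowly. Among the knockouts, *Fmo5*-/- replicate 3 had the lowest Kupffer cell, T and NK cell and neutrophil sums. It also had the lowest *Dmpk*, *Limd2* and *Aatk* values, but not the lowest *Adam11* value. The part of these cell types in the levels of *Aatk*, *Adam11*, *Dmpk* and *Limd2* was not tested.

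Muscle and nerve, the tissues in which *Dmpk*, *Aatk* and *Adam11* are best known, were followed through their markers as well. Skeletal muscle markers summed to 1.02 to 1.55 CPM in WT and 0.916 to 1.15 CPM in *Fmo5*-/- livers, and over the 6 libraries *Ckm* had 1 count and *Myh4* had 2, while *Mylpf* had 318. Of the nerve and Schwann cell markers, *Sox10*, *Tubb3* and *Snap25* had 7, 5 and 3 counts in all. Smooth muscle markers summed to 4.71 to 15.0 CPM in WT and 4.97 to 5.65 CPM in *Fmo5*-/- livers. Of the adipocyte markers *Adipoq*, *Plin1* and *Lep* had only 57, 60 and 10 counts over the 6 libraries and were not tested. The summed adipocyte level of 9.28 to 21.5 CPM in WT and 0.865 to 2.84 CPM in *Fmo5*-/- livers was mostly *Cfd*, which had 653 ± 265 and 69.9 ± 50.7 normalized counts (SD, n = 3 each) and was called lower by DESeq2 but not by edgeR. The hepatocyte markers overlapped between the genotypes, at 102886 to 136348 CPM in WT and 105893 to 132930.5 CPM in *Fmo5*-/- livers. The ranges of endothelial, stellate, B cell, cholangiocyte and erythroid markers overlapped as well.

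Genes with the most similar pattern were sought by the Pearson correlation r of log2 CPM over the 6 libraries, among tested genes with a mean of at least 100 normalized counts. These r values carry the split between genotypes and are given as a description. For *Aatk* the 3 closest genes were *Hspd1*, a mitochondrial chaperone (r = 0.997), *Canx*, the calnexin chaperone of the endoplasmic reticulum (r = 0.997), and *Ubxn4* (r = 0.996). Their log2 fold changes of -0.24, -0.34 and -0.29 were smaller than that of *Aatk*. For *Adam11* they were *Phc3* (r = 0.993), *Dvl1* (r = 0.993) and *Rcc1* (r = 0.990), with log2 fold changes of 0.10 to 0.36. For *Dmpk* they were *Stk17b* (r = 0.995), *Gm379* (r = 0.993) and *Pacs2* (r = 0.992), of which *Gm379* had a log2 fold change of 2.56.

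For *Limd2* the closest genes were *Ifi44* (r = 0.996), *Trim30d* (r = 0.994) and *Nemp1* (r = 0.990). *Ifi44* is an interferon-induced gene and had 94.1 ± 16.1 normalized counts in WT and 225 ± 17.5 in *Fmo5*-/- (SD, n = 3 each), which is a log2 fold change of 1.26. *Trim30d*, of the TRIM30 family, had a log2 fold change of 0.86. An r over 0.9 was not confined to the genes named: it held for 4.88% of genes with *Aatk*, 1.73% with *Adam11*, 4.54% with *Dmpk* and 3.07% with *Limd2*.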

How the data were processed

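The libraries were mRNA libraries of frozen liver, sequenced as single reads. Per the labels, bcl2fastq and FastQC were used, and the authors aligned reads to mm10 with STAR. The deposited count files hold read counts per gene for both strands together and for each strand alone, and both-strand counts were used. The deposited comparison table holds a normalized signal per library, equal to the counts over DESeq2 size factors, with the authors' own log2 fold changes, p-values and scores, which were not used. GENCODE M21 matched 54409 of 54446 gene IDs, 1180 of them without the version. Reads assigned to no gene, 30.8 to 33.8% of those listed, were left out. edgeR 4.0.16 (R 4.3.3) with TMM, filterByExpr at its minimum count of 10 and a robust quasi-likelihood fit tested 16734 genes. DESeq2 1.42.0 was an alternative. Replicate numbers follow accession order. The labels do not say whether samples are separate cultures or animals, the methods count mice, and p-values measure the spread between samples. Named genes are the 4 genes, *Fmo5*, called genes of each list or else that with the smallest adjusted p, called and nearest neighbours, and the 3 genes of highest r. Genes that overlap the 4, *Ilk* and the single marker genes were named outside this rule, after their values were seen. The genes and lists were chosen with earlier results of these data known. Strand shares were compared with 50% by exact 95% binomial intervals, which cover counting error only. The fit was tested on simulated data. Some marker genes, and the summed level of their list, are not reported here.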

Additional observations from a re-analysis of the deposited data

How the results depend on the processing

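The log2 fold changes of *Aatk*, *Adam11*, *Dmpk* and *Limd2* kept their sign and moved by less than 1 SD under all 13 alternatives. Without 1 library they ranged from -1.11 to -0.91, 0.99 to 1.19, 0.86 to 1.05 and 0.75 to 0.93. The counts of called genes moved far more, and the causes were not tested. Of 16734 tested genes 229 (1.37%) were called. DESeq2 called 1395 of 15571 (8.96%), no filter on low counts 1989 of 34200 and a mean of 500 before the fit 53 of 7819. First-strand counts gave 328 of 15979 and second-strand counts 241 of 16033. Leaving out a library gave 31 of 17043 (without *Fmo5*-/- replicate 1) to 763 of 17130 (without *Fmo5*-/- replicate 3). Of 65 tested relatives and partners 2 (3.08%) were called. DESeq2 called 10, beside its 8.96% of all genes. No filter called 12, the mean of 500 called 1 and second-strand counts 1, and leaving out a library gave 0 to 7. Of the markers 1 was called. DESeq2 called 12, with 5 of 6 Kupffer cell and 5 of 10 T and NK cell markers among them. No filter called 11 and first-strand counts 2, and leaving out a library gave 0 to 9. Of 112 tested neighbours 0 were called by edgeR. DESeq2 called 3 of 104, no filter 6, first-strand counts 1 and a window of 1 Mb 3 of 200, and leaving out a library gave 0 to 3. Of the 12 genes most like the 4, only 1 was shared when r was taken over deviations from the genotype means. No paired analysis was made, because neither the labels nor the methods pair any WT liver with an *Fmo5*-/- liver.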

Other observations

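Called genes were counted on the chromosomes concerned. On chromosome 11, which holds *Adam11*, *Limd2* and *Aatk*, the edgeR quasi-likelihood test called 15 of 1331 tested genes (1.13%), 7 higher and 8 lower in *Fmo5*-/- liver. On chromosome 7, which holds *Dmpk*, it called 12 of 1282 (0.936%), 9 higher and 3 lower. On chromosome 3, which holds *Fmo5*, it called 40 of 866 (4.62%), 17 higher and 23 lower. These counts include *Fmo5* itself and the 4 genes, which were picked for their change, and whether the shares differ was not tested. With the window around the 4 genes widened to 1 Mb, edgeR called 3 of 200 tested genes, all higher, beside 1.37% of all tested genes, and DESeq2 called 10 of 189 higher and 2 lower, beside 4.75% and 4.21%. The 3 genes called by edgeR were *Rnf213*, an interferon-inducible E3 ubiquitin ligase, on the side of *Aatk*, *G6pc3*, a glucose-6-phosphatase subunit of many tissues, near *Adam11*, and *Relb*, an NF-kappaB subunit, near *Dmpk*. Their adjusted p by edgeR with Benjamini-Hochberg adjustment lay between 0.0443 and 0.0499.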
